A study of Drosophila melanogaster with 9 samples.

Results

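The proteasome subunit genes of Drosophila were followed through a Larp RNA immunoprecipitation (RIP) from ovaries. They were taken by symbol, as every gene whose FlyBase name begins with Prosalpha, Prosbeta, Rpn and a digit, or Rpt and a digit, and 48 of the 17024 features in each count list met this rule. Of these, 32 carry the plain name of a subunit and 16 carry the name of a subunit followed by R or T, which marks a second gene for it. The plain names comprise 14 genes of the core particle, 7 for the alpha ring and 7 for the beta ring, and 18 genes of the regulatory particle. The regulatory genes comprise 6 ATPases of the base (Rpt1 to Rpt6), 4 other base subunits (Rpn1, Rpn2, Rpn10 and Rpn13) and 8 lid subunits (Rpn3, Rpn5 to Rpn9, Rpn11 and Rpn12).

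The proteasome is the main protease of the cytoplasm and nucleus for proteins tagged with ubiquitin. Its core particle is a barrel whose beta rings hold the protease sites and whose alpha rings form the gate. The regulatory particle caps the barrel. Its lid removes ubiquitin and its ATPase base unfolds the substrate and feeds it into the core. In flies, many second copies of subunit genes are expressed in the testis, where some of them make a proteasome of the male germline.

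Larp, the Drosophila La-related protein, binds RNA. All 9 libraries came from ovaries of flies with the genotype larp::GFP::FLAG, in which Larp carries GFP and a FLAG tag, dissected from 1 to 3 days after eclosion, and no untagged genotype was among them. The 3 fractions sequenced as poly(A)-selected RNA, with 3 libraries each, were the RNA pulled down by anti-FLAG antibody (Larp IP), the RNA pulled down by control IgG from mouse (IgG control), and the RNA of 10% of the lysate set aside beforehand (input). The labels do not say whether the 3 samples of a fraction came from separate dissections, so p-values measure only the spread between these samples.

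Totals ran from 11316201 to 17571309 counts, and a count of 3 was worth 0.171 to 0.265 CPM, the unit of counts scaled to a common library total. The Larp IP libraries stood apart in composition. The 87 cytoplasmic ribosomal protein genes took 39.7% ± 10.1 of all counts in Larp IP libraries, 8.10% ± 0.87 in IgG control libraries and 9.01% ± 1.18 in input libraries (SD, n = 3 each). Counts were therefore scaled by trimmed mean of M values (TMM), a factor that sets most genes level between libraries, and a level below is in CPM after this scaling (normalised CPM). All 8 follicle cell markers and 8 of 10 listed markers of the ovarian germline were found, and each was above 0 in at least 1 library. Of 15 testis markers found, 9 were at 0 in all libraries and no count exceeded 32. Summed muscle markers were at 39.7 to 144 CPM in Larp IP libraries, 115 to 419 CPM in IgG control libraries and 42.9 to 104 CPM in input libraries. Summed fat body markers were at 17.2 to 114 CPM in Larp IP libraries, 55.8 to 777 CPM in IgG control libraries and 17.7 to 47.3 CPM in input libraries. The part of these other tissues in the values below was not tested. In whole ovaries, fewer cells of a type and less RNA per cell cannot be told apart.

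Most plain subunit genes had counts in every library and most second copies had none. Of the 32 plain names, 31 had at least 10 counts in every library. Of the 16 copies, 14 had no count in any of the 9 libraries, a share of 87.5%, while 40.3% of all 17024 features had none. A count of 0 allows up to 3 counts, or the 0.171 to 0.265 CPM given above, and this limit covers counting error only, since reads were not counted by molecule. Counts of 1 to 9 were rare here: 109 to 814 features per library had one, against 8548 to 9906 at 0. The 14 copies without counts were Prosalpha1R, Prosalpha3T, Prosalpha4T1, Prosalpha4T2, Prosalpha6T, Prosbeta2R1, Prosbeta2R2, Prosbeta4R1, Prosbeta4R2, Prosbeta5R1, Prosbeta5R2, Rpt4R, Rpn12R and Rpn13R.

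**Figure D1:**
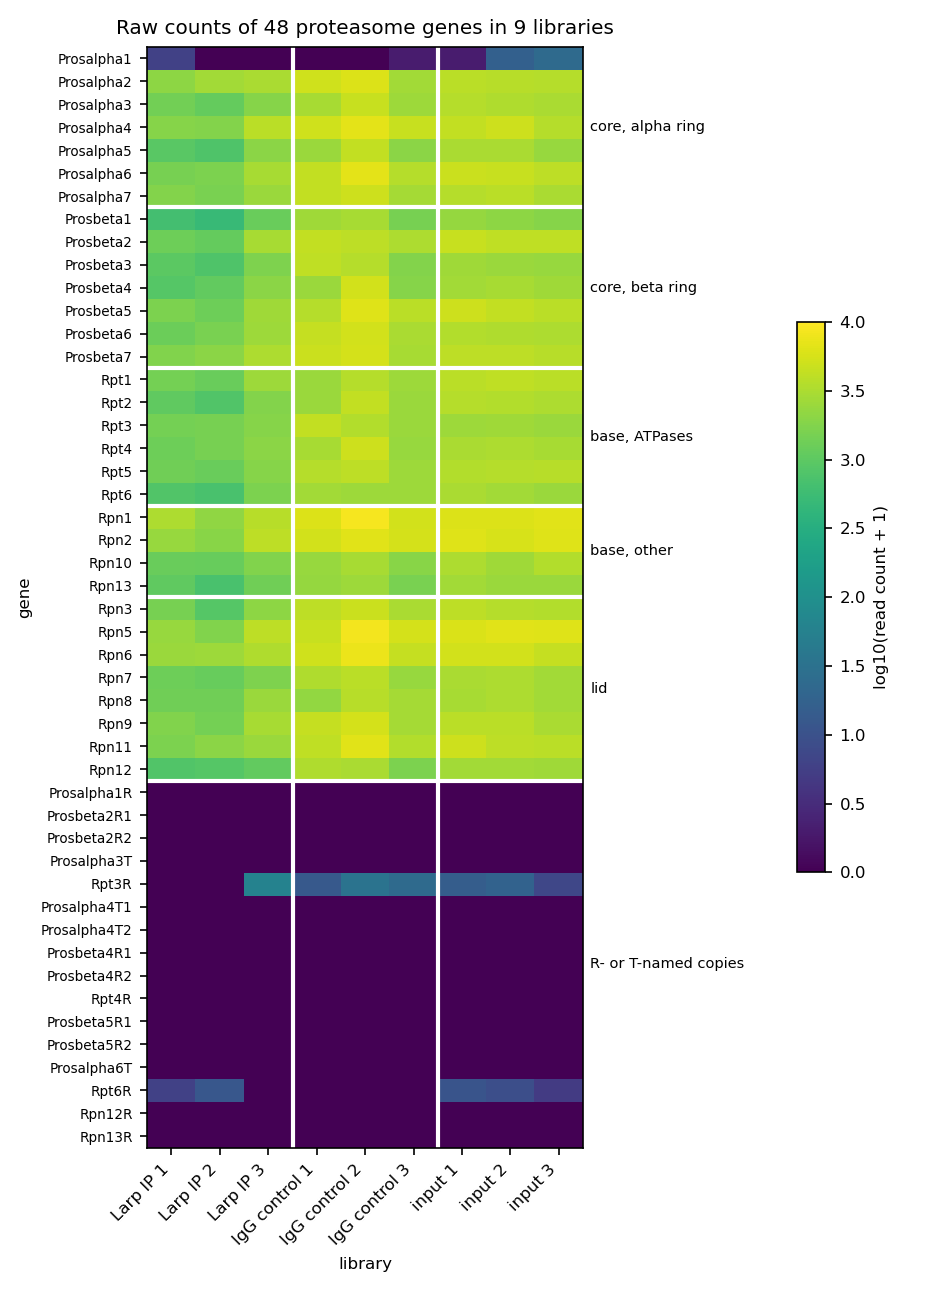
Read counts of the 48 proteasome genes (rows, grouped by role) in the 9 libraries (columns: Larp IP, IgG control, input), coloured by log10 of the count plus 1. The R- or T-named copies at the bottom are at 0 in every library except Rpt3R and Rpt6R, and Prosalpha1 in the top row has at most 23 counts.

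The 2 copies with any count belong to ATPases of the base. Positions here and below are those of the BDGP6.54 assembly. Rpt3R (chr3R:9754735-9756510, minus strand) had 0, 0 and 58 counts in Larp IP libraries, 12, 32 and 23 in IgG control libraries and 14, 17 and 6 in input libraries. Rpt6R (chr3R:30582198-30583697, minus strand) had 5, 11 and 0 counts in Larp IP libraries, 0, 0 and 0 in IgG control libraries and 10, 8 and 4 in input libraries. For Rpt6R every IgG control library was at 0 and every input library was above 0. The lowest input count, 4, was near the 3 counts that a 0 allows, and Rpt6R was not tested. The Larp IP libraries overlapped both other fractions in both genes. All Larp IP counts of Rpt3R came from the third library, and Rpt6R was above 0 in the other two. Rpt3R was the only copy that passed the filter on low counts, and its log2 fold change of 1.19 in Larp IP against input had an SE of 1.84 and an adjusted p of 0.846 (edgeR). Without the third Larp IP library the fitted value was -6.28, which is no bound since the remaining counts were 0. The parent genes were far above them in input: Rpt3 had 2597, 2671 and 2458 counts and Rpt6 had 3090, 2768 and 2498 counts.

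Prosalpha1 was the exception among the plain names. It had 5, 0 and 0 counts in Larp IP libraries, 0, 0 and 1 in IgG control libraries and 1, 16 and 23 in input libraries, while the other 6 alpha ring genes had 782 to 6822 counts. Prosalpha1 lies at chr2R:7827303-7828678 and its copy Prosalpha1R at chr2R:7830413-7831771, both on the minus strand. Both models have 4 exons, a coding length of 732 bases and a 3′ UTR of 98 bases. Where reads fit both genes, the counts cannot say which of them they came from, so the level of Prosalpha1 and the absence of counts for Prosalpha1R, 1 of the 14 copies above, are both uncertain. Prosalpha1 enters no median below. It did not pass the filter on low counts.

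The remaining 31 subunit genes were set side by side per length, in normalised CPM per kb of exon. Core particle genes stood higher than regulatory particle genes in every fraction. The median core gene was at 205 ± 35.7 in Larp IP libraries, 229 ± 11 in IgG control libraries and 226 ± 4.7 in input libraries, and the median regulatory gene was at 115 ± 15.5, 124 ± 0.60 and 135 ± 2.5 in the same fractions (normalised CPM per kb, mean ± SD of 3 library medians). The ratio of the core median to the regulatory median was 1.60, 1.63 and 2.14 in Larp IP libraries, 1.89, 1.90 and 1.75 in IgG control libraries, and 1.68, 1.72 and 1.60 in input libraries. The Larp IP ratios overlapped those of both other fractions, while all 3 IgG control ratios were above all 3 input ratios. These differences were not tested.

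**Figure D2:**
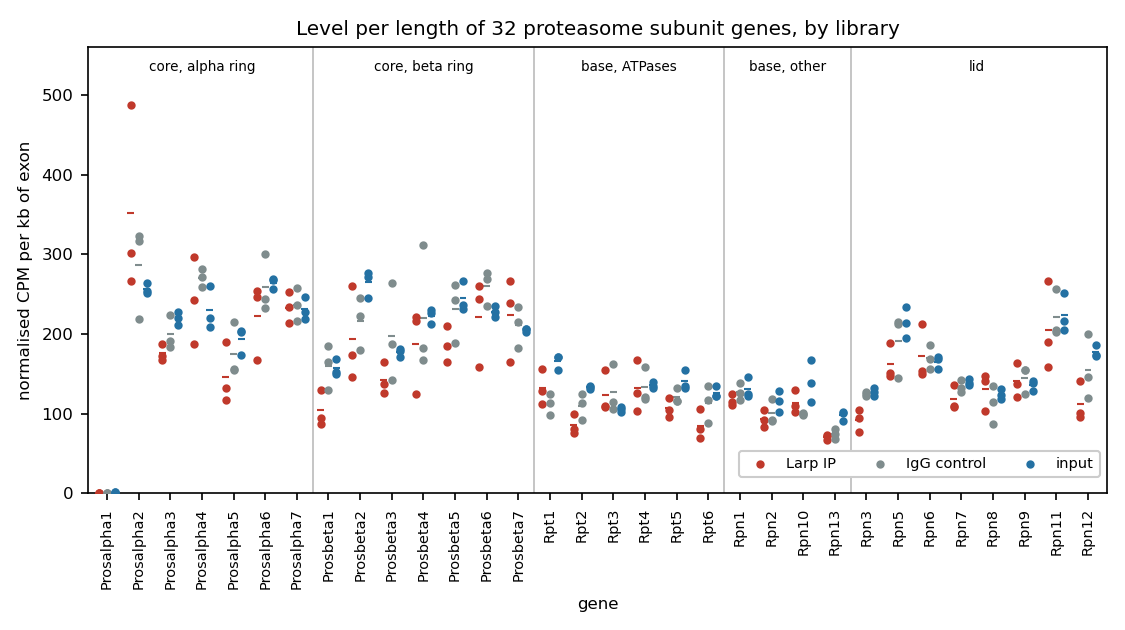
Normalised CPM per kb of exon (vertical axis) of the 32 plain-named subunit genes, with 1 point per library and a bar at the mean of 3 (Larp IP red, IgG control grey, input blue). Core genes lie mostly above 150 and regulatory genes mostly below it, Prosalpha1 lies near 0, and the Larp IP points of a gene are usually the most spread.

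Levels per length within the core particle were more even in input and IgG control libraries than in Larp IP libraries. Among 13 core genes the highest mean was 3.38 times the lowest in Larp IP libraries, 1.79 times in IgG control libraries and 1.69 times in input libraries. The coefficient of variation across these genes was 29.8% in Larp IP libraries, 16.7% in IgG control libraries and 14.7% in input libraries. For 18 regulatory genes it was 27.5%, 26.5% and 23.3% in the same fractions. The ATPases, which form 1 ring and are needed in equal number, had a coefficient of variation of 19.8% in Larp IP libraries, 7.79% in IgG control libraries and 14.6% in input libraries. The lowest core gene in each fraction was Prosbeta1, apart from Prosalpha1. The lowest regulatory gene was Rpn13 and the highest was Rpn11 in each fraction.

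In input, the highest core levels per length belonged to Prosbeta2, Prosalpha6 and Prosalpha2. Prosbeta2 (chr3L:14999951-15001319), which carries the trypsin-like protease site, was at 193 ± 59.5 normalised CPM per kb in Larp IP libraries, 216 ± 33.1 in IgG control libraries and 265 ± 16.6 in input libraries. Prosalpha6 (chr2L:10221351-10222546), a gate ring subunit, was at 223 ± 47.9 in Larp IP libraries, 259 ± 36.4 in IgG control libraries and 264 ± 7.25 in input libraries. The means of both genes were lowest in Larp IP libraries. The highest regulatory levels in input belonged to 3 lid genes. Rpn11 (chr2L:5058404-5059790), the deubiquitinase of the lid, was at 205 ± 55.9 in Larp IP libraries, 221 ± 30.96 in IgG control libraries and 224 ± 24.04 in input libraries. Rpn5 (chr3R:5789493-5791569), a lid scaffold subunit, was at 162 ± 22.9 in Larp IP libraries, 191 ± 39.6 in IgG control libraries and 214 ± 19.6 in input libraries. The lid led the other regulatory parts per length, with a median gene at 152 ± 5.6 in input libraries, while the ATPases were at 134 ± 1.9 and the other base genes at 122 ± 14.5.

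Whether Larp recovered proteasome mRNAs was asked first against input. No subunit gene passed the test in either direction, in a fit that did not pair the libraries by replicate number. The 31 genes had log2 fold changes from -0.64 (Rpn12) to 0.47 (Prosalpha2) in Larp IP over input, with a median of -0.29 and SEs of 0.17 to 0.22. The median was -0.23 for the core and -0.29 for the regulatory particle. By part it was -0.10 for the alpha ring, -0.30 for the beta ring, -0.35 for the ATPases, -0.29 for the other base genes and -0.17 for the lid, and the median of all 7575 genes tested was 0.01. The core median was -0.08 without Larp IP replicate 1 and -0.36 without Larp IP replicate 3. Of the 31 genes, 23 were below 0, where 48.8% of all genes were.

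The test was edgeR's quasi-likelihood test with Benjamini-Hochberg adjustment over all genes, and a call needed an adjusted p under 0.05 and a change of at least 2-fold. By this rule 0 of 31 subunit genes were called higher and 0 lower, beside 1.83% and 0.251% of all genes tested. At the adjusted p alone the subunit genes again numbered 0 in either direction, beside 2.05% higher and 0.383% lower of all genes. The lowest adjusted p of a subunit gene was 0.0933, for Rpt2. At an unadjusted p under 0.05, 6 were lower (Rpn13, Rpn3, Prosbeta1, Rpt2, Rpt6 and Rpn12) and none was higher, beside 6.36% and 8.07% of all genes. With DESeq2 none was called either, and Rpt2 alone had an adjusted p under 0.05 (0.0431), beside 0.947% of all genes lower. The replicate numbers were taken to pair the libraries, and with them as a block 241 genes were called in all in place of 158. In that fit 2 subunit genes, Rpt2 and Rpn12, passed the adjusted p (0.0347 and 0.0387) without reaching 2-fold. By the adjusted p alone, 2.11% of all genes were lower in that fit. Without Larp IP replicate 3, 358 genes were called in all. There 5 subunit genes (Prosbeta1, Rpt2, Prosalpha5, Rpt6 and Prosbeta2) passed the adjusted p as lower, again without reaching 2-fold. By the adjusted p alone, 3.51% of all genes were lower without that library.

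With TMM scaling, a 2-fold change lay outside the 95% interval for most of these genes. The 95% interval of the log2 fold change lay wholly between -1 and 1 for 28 of 31 subunit genes, where the same held for 50.3% of all genes tested. The subunit genes were well counted, with a median of 207 normalised CPM over all libraries where all genes tested had 41.9. The exceptions were Prosbeta1, Rpt2 and Rpn12, whose intervals reached -1.02, -1.02 and -1.08.

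**Figure D3:**
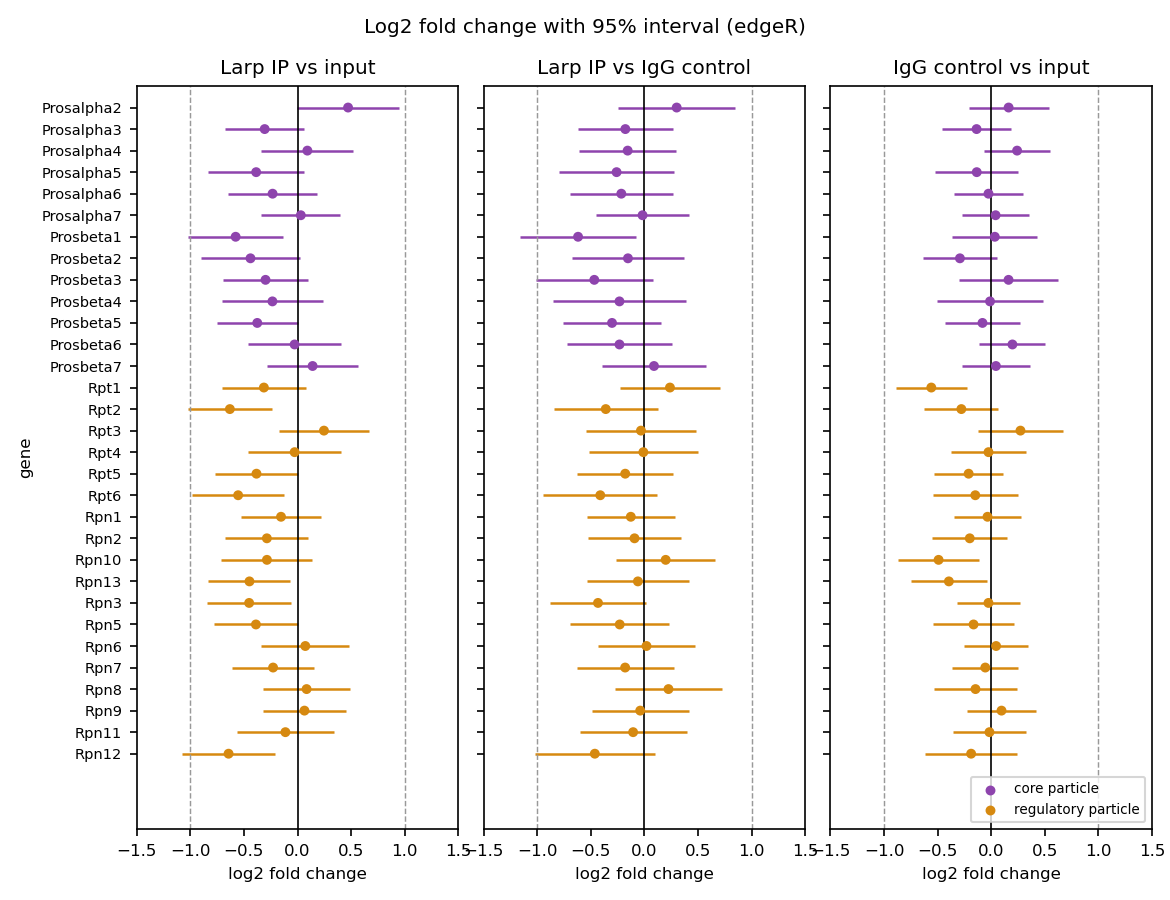
Log2 fold change (horizontal axis) of 31 subunit genes in Larp IP against input, Larp IP against the IgG control, and the IgG control against input, as points with 95% intervals from edgeR (core particle purple, regulatory particle orange). Dashed lines mark a 2-fold change, and no point lies beyond them.

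The genes with the lowest fold changes came from the lid, the base and the beta ring. Rpn12 (chr3L:16583028-16584022), a single-exon lid gene, had 95.1, 140.1 and 100.1 normalised CPM in Larp IP libraries, against 171, 173 and 185 in input libraries. Rpt2 (chr3R:23929873-23931558), the ATPase that opens the core gate, had 122, 132 and 161 normalised CPM in Larp IP libraries, against 219.7, 213 and 216 in input libraries. In both genes every Larp IP library was below every input library. Their log2 fold changes were -0.64 (95% interval -1.08 to -0.21, adjusted p = 0.128, edgeR) and -0.63 (95% interval -1.02 to -0.24, adjusted p = 0.0933, edgeR).

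Prosbeta1 (chr2R:16013805-16014787), which carries the caspase-like protease site, had 74.6, 80.3 and 111 normalised CPM in Larp IP libraries, against 144, 129.6 and 127 in input libraries. Rpt6 (chrX:21316052-21317663), an ATPase of the base, had 96.97, 113 and 148 normalised CPM in Larp IP libraries, against 189, 171 and 171 in input libraries. Again the groups did not overlap, and in both genes the third Larp IP library was nearest to input. Their log2 fold changes were -0.58 (adjusted p = 0.197, edgeR) and -0.55 (adjusted p = 0.199, edgeR). The Rpt6 gene body, introns included, overlaps that of CG1801 on the opposite strand by 1471 bases. How reads were assigned by strand is not given in the sources used here.

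At the other end stood Prosalpha2, Rpt3 and Prosbeta7. Prosalpha2 (chr3R:12431321-12432556), a gate ring subunit, had 245, 448 and 277 normalised CPM in Larp IP libraries, against 234, 231 and 243 in input libraries. All Larp IP libraries were above all input libraries, with the second far above the others, and the log2 fold change was 0.47 (95% interval -0.01 to 0.95, adjusted p = 0.353, edgeR). Rpt3 (chrX:11125101-11126785) had 169.8, 239.8 and 168 normalised CPM in Larp IP libraries, against 159, 165 and 168 in input libraries. Prosbeta7 (chr3R:5357012-5358364), a beta ring subunit without a protease site, had 201, 323 and 289.8 normalised CPM in Larp IP libraries, against 246, 250 and 250.1 in input libraries. For Rpt3 the Larp IP libraries of replicates 1 and 3 were close to input, and for Prosbeta7 the groups overlapped. Their log2 fold changes of 0.25 and 0.14 had SEs of 0.19 and 0.20.

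Across all 31 genes, 13 had every Larp IP library below every input library, or 41.9%, where 11% of all genes tested did. Of these 13, 5 were core and 8 were regulatory genes. Only Prosalpha2 had every Larp IP library above every input library, where 9.33% of all genes tested did. Same-numbered libraries gave a like count: 17 of the 31 genes (54.8%) were lower in Larp IP in 3 of 3 pairs, where 21.1% of all genes tested were. The subunit genes were better counted (median of 207 normalised CPM, all genes tested 41.9), so these shares are not like for like. The changes were small. The quartiles of the 31 log2 fold changes were -0.39 and 0.0019, and none of the 13 reached a 2-fold change.

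The fold changes against input depended on the scaling between libraries, while their distance from the median of all genes hardly did. As a share of all counts, the 48 genes took 0.366%, 0.379% and 0.547% in Larp IP libraries, 0.829%, 0.880% and 0.820% in IgG control libraries, and 0.955%, 0.898% and 0.871% in input libraries. Both particles had their lowest shares in Larp IP libraries: the core genes took 0.179% ± 0.050 in Larp IP libraries, 0.355% ± 0.028 in IgG control libraries and 0.361% ± 0.026 in input libraries, and the regulatory genes took 0.252% ± 0.051, 0.488% ± 0.016 and 0.547% ± 0.019 in the same fractions (SD, n = 3 each). Out of the counts that fell outside the ribosomal protein genes, all subunit genes took 0.712% ± 0.074 in Larp IP libraries, 0.918% ± 0.040 in IgG control libraries and 0.998% ± 0.037 in input libraries. Without TMM, on library totals, the median log2 fold change against input was -1.17 for the 31 genes and -0.88 for all genes tested. The difference was -0.29, and with TMM it was -0.30. On library totals 21 of 31 subunit genes were called lower, along with 29.2% of all genes. Calls higher then made up 4.45% of all calls in place of 88.0%.

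**Figure D4:**
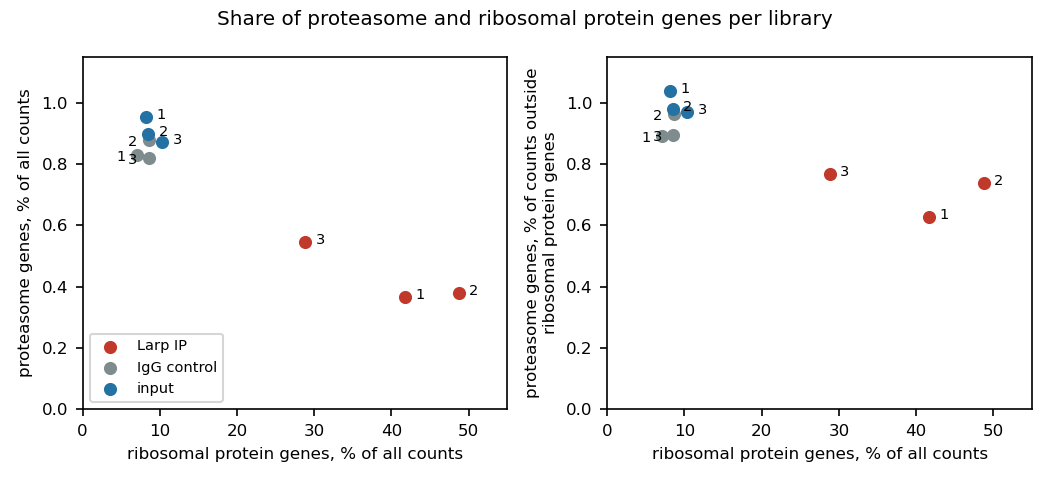
Share of counts of the 48 proteasome genes (vertical axis, % of all counts at left, % of counts outside ribosomal protein genes at right) against the share of the 87 ribosomal protein genes (horizontal axis, % of all counts), 1 point per library with its replicate number. At left the Larp IP libraries lie between 0.366% and 0.547%, below all others, and at right they lie between 0.628% and 0.768%, nearer to the IgG control and input libraries.

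The IgG control gives the background of the procedure. Against it the median fold change was smaller for the regulatory particle and much the same for the core. The medians against input were -0.29 for the regulatory particle and -0.23 for the core. The median log2 fold change of the 31 genes in Larp IP over the IgG control was -0.16, with -0.22 for the core and -0.10 for the regulatory particle, and the median of all 7408 genes tested was 0.00. These medians moved with single libraries. Without Larp IP replicate 1 they were -0.04 for the 31 genes, -0.04 for the core and -0.05 for the regulatory particle, and without Larp IP replicate 2 they were -0.23, -0.24 and -0.20. Without Larp IP replicate 3 the core median was -0.32, and without IgG control replicate 2 the medians of the 31 genes and of the core were both -0.08. No gene was called higher or lower among the 31, beside 1.62% and 0.0135% of all genes tested (edgeR). At an unadjusted p under 0.05 only Prosbeta1 was lower and none was higher, beside 2.39% and 5.18% of all genes, and DESeq2 called none. Of the 31 genes, 25 were below 0, where 49.9% of all genes were. The interval lay within 2-fold for 28 of 31 genes, where it did for 38.9% of all genes tested. This comparison shares the Larp IP libraries with the previous one, so the 2 sets of fold changes are not independent.

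Prosbeta1 had 74.6, 80.3 and 111 normalised CPM in Larp IP libraries, against 157, 141 and 111 in IgG control libraries. The highest Larp IP library was just below the lowest IgG control library, and the log2 fold change was -0.62 (95% interval -1.16 to -0.07, adjusted p = 0.575, edgeR). Rpn12 had 199, 145 and 119 normalised CPM and Rpt2 had 149, 202 and 184 normalised CPM in IgG control libraries, and both overlapped their Larp IP values given above. Their log2 fold changes against the IgG control were -0.46 and -0.36. Prosalpha2 had 297, 292 and 201 normalised CPM in IgG control libraries, which again overlapped, and its log2 fold change was 0.30 (SE 0.26). In all, Rpn3 and Prosbeta1 had every Larp IP library below every IgG control library (6.45% of the 31, against 5.75% of all genes tested), and Rpn10 had every one above (3.23% against 6.9%). Counts without overlap were near the background in this comparison. By same-numbered pairs, 7 of the 31 genes (22.6%) were lower in Larp IP in 3 of 3 pairs, where 15.8% of all genes tested were, and these were Prosalpha3, Prosbeta1, Prosbeta5, Rpn3, Rpn12, Rpt2 and Rpt6. Higher in 3 of 3 pairs were Rpn8, Rpn10 and Rpt1 (9.68%, where 16.6% of all genes tested were).

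The IgG control was also set against input, to show what the procedure does without anti-FLAG antibody. No gene in the whole table was called (edgeR, 0% in either direction), while 465 genes had an unadjusted p under 0.05 and DESeq2 called 33. The median log2 fold change of the 31 subunit genes was -0.03. The core and regulatory medians lay on either side of 0, at 0.03 and -0.15, and 6 of 13 core genes but 15 of 18 regulatory genes were below 0, where 50.3% of all genes tested were. The core median was -0.02 without IgG control replicate 1, and the difference between the particles was not tested. At an unadjusted p under 0.05, 3 subunit genes were lower, all of the base, and none was higher, beside 3.61% and 2.52% of all genes. Rpt1, an ATPase, had 149.5, 172 and 189 normalised CPM in IgG control libraries, against 234, 259.6 and 259.7 in input libraries. Rpn10, a ubiquitin receptor, had 143, 139.8 and 141 normalised CPM in IgG control libraries, against 196, 163 and 237 in input libraries. Rpn13, also a ubiquitin receptor of the base, had 136, 124 and 113 normalised CPM in IgG control libraries, against 168, 152 and 171 in input libraries. None of the 3 overlapped between groups. Their log2 fold changes were -0.56, -0.49 and -0.40, with adjusted p of 0.649, 0.761 and 0.788 (edgeR). These 3 were named after their values were seen. Rpt1 lies wholly inside the gene body of CG17985, introns included, on the same strand. Its counts and those of that gene may be shared. In all, 6 subunit genes had every IgG control library below every input library (19.4%, against 8.44% of all genes tested) and Prosbeta6 had every one above (3.23% against 5.41%).

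Rpn13, Rpt2 and Rpt5 had values below all input libraries in both the Larp IP and the IgG control. These comparisons share the input libraries, so their results are not independent. The share of all genes tested that were below input in both fractions was not counted. Rpn13 had 123, 112 and 121 normalised CPM in Larp IP libraries, close to its IgG control values, and its log2 fold change was -0.45 against input and -0.06 against the IgG control. For Rpt2 the log2 fold change of the IgG control against input was -0.28 (SE 0.16). Rpt5, another ATPase, had 156, 194 and 171 normalised CPM in Larp IP libraries, 214.7, 188 and 189 in IgG control libraries and 215.2, 219.9 and 251 in input libraries, with log2 fold changes of -0.38 in Larp IP and -0.21 in the IgG control, both against input. It was named after its values were seen. For Prosbeta1 the log2 fold change in the IgG control against input was 0.03 (SE 0.18).

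The core genes varied with the replicate number. In same-numbered libraries, the median log2 ratio of Larp IP to input over 13 core genes was -0.52, -0.12 and -0.01 for replicates 1, 2 and 3, and over 18 regulatory genes it was -0.44, -0.14 and -0.29. The median over all genes tested stayed between -0.05 and 0.00. Against the IgG control the core median was -0.48, -0.25 and 0.11 and the regulatory median was -0.26, 0.03 and -0.14. In the first pair all 13 core genes were below the IgG control, in the second 10 and in the third 3. The median of all genes tested in these pairs was 0.054, -0.016 and -0.00086. The share of all genes below the IgG control was not counted per pair. The core genes of a pair share their libraries and are not replicates. The third Larp IP library was also the one with the lowest share of ribosomal protein counts, 28.8% where the others had 41.7% and 48.7%. Whether these go together was not tested.

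**Figure D5:**
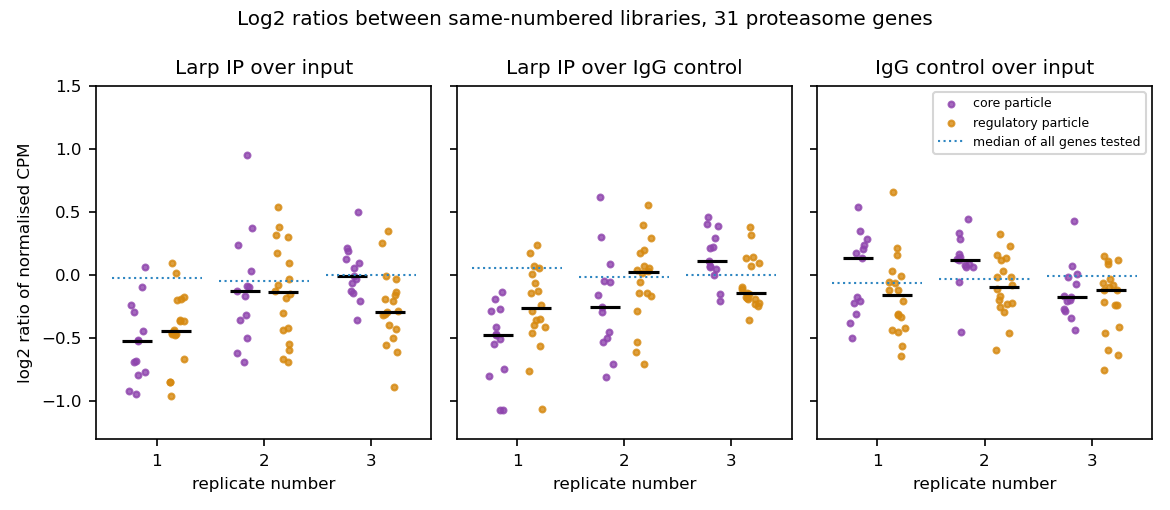
Log2 ratio of normalised CPM between same-numbered libraries (vertical axis) by replicate number, 1 point per subunit gene (13 core genes purple, 18 regulatory genes orange), with a black bar at each median and a dotted line at the median of all genes tested. The core medians of Larp IP over the IgG control are -0.48, -0.25 and 0.11, while the dotted lines stay within 0.06 of 0.

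The subunit genes have short mRNAs. The median annotated transcript was 973 bases for 13 core genes, 1534 for 18 regulatory genes and 1098 for the 16 copies, where all genes tested had 2062 and the cytoplasmic ribosomal protein genes had 858. The median 5′ UTR was 100 bases in the core, 135 in the regulatory particle and 75 in the copies. The median 3′ UTR was 109, 116.5 and 98.5 bases in the same order, where all genes tested had 277. Across the 31 genes, the Spearman correlation of the log2 fold change against input was -0.01 with transcript length, 0.22 with 5′ UTR length and 0.42 with 3′ UTR length. Across 7261 genes it was 0.07, 0.02 and 0.06. For 3′ UTR length the 31 genes gave 0.24 in Larp IP against the IgG control and 0.23 in the IgG control against input. All genes gave 0.04 and 0.03 in these comparisons. These are descriptions across genes, which share their libraries and are not replicates. Overlaps were taken over whole gene bodies, introns included. Of the 32 plain-named genes, 15 overlap a gene on the opposite strand, 1 overlaps a gene on the same strand and 16 overlap none.

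Outside the named subunits, other genes of the pathway were examined. Of 21 listed assembly factors, activators, regulators and shuttle genes, 17 were found and tested, and none passed the adjusted p in any of the 3 comparisons (edgeR). Their median log2 fold change was -0.07 in Larp IP against input and -0.02 against the IgG control. Pomp, the chaperone that matures the core particle, had 72.2, 124 and 92.2 normalised CPM in Larp IP libraries, 91.8, 175 and 99.97 in IgG control libraries and 98.4, 106 and 108 in input libraries. PI31, a regulator that binds the core, had 37.1, 35.9 and 79.3 normalised CPM in Larp IP libraries, 97.4, 57.1 and 33.01 in IgG control libraries and 58.04, 73.6 and 49.98 in input libraries. The fractions overlapped in both. The log2 fold change of cnc, the transcription factor that drives proteasome genes under stress, was 0.17 against input (adjusted p = 0.748, edgeR).

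Of 4 ubiquitin genes tested, the 2 that encode ubiquitin fused to a ribosomal protein rose in Larp IP, and the 2 polyubiquitin genes did not pass the test. RpS27A had 16786, 25426 and 11041 normalised CPM in Larp IP libraries, against 1361, 1864 and 2165 in input libraries, a log2 fold change of 3.32 (SE 0.44, adjusted p = 0.000316, edgeR). RpL40 had 5738, 8899 and 3600 normalised CPM in Larp IP libraries, against 719, 758 and 957 in input libraries, a log2 fold change of 2.92 (SE 0.38, adjusted p = 0.000275, edgeR). In both the lowest Larp IP library was above the highest input library. Both genes belong to the cytoplasmic ribosomal protein genes, whose median log2 fold change against input was 3.08 over 80 genes tested. Of these 80, 76 were called higher (edgeR), beside 1.83% of all genes tested. Ubi-p63E, a polyubiquitin gene, had 497, 526 and 260.4 normalised CPM in Larp IP libraries, against 292, 280.2 and 193 in input libraries, and its log2 fold change was 0.76 (adjusted p = 0.175, edgeR). Ubi-p5E, the other polyubiquitin gene, had 374, 399.9 and 406 normalised CPM in Larp IP libraries, 517, 658 and 412 in IgG control libraries and 556, 524 and 413 in input libraries, and its log2 fold change was -0.33 against input (adjusted p = 0.465, edgeR) and -0.42 against the IgG control (adjusted p = 0.72, edgeR).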

How the data were processed

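The authors deposited 1 list per library of read counts per FlyBase gene, without normalization. Per the labels, HISAT2 2.1.0, featureCounts 1.4.6 and the dm6 build are named in the submitters' processing notes, and the strand setting is not given in the sources used here. Symbols matched 16647 features. Unnamed features, 5.13% to 12.5% of counts, stayed in totals and tests. Positions and lengths came from Ensembl 115 (BDGP6.54). Each pair of fractions was fitted on its 6 libraries with edgeR 4.0.16 in R 4.3.3 (TMM, filterByExpr, robust quasi-likelihood fit), and 32 of 48 genes passed the filter against input, Rpt3R and 31 plain names. Per-gene values use the gene's counts, TMM factors over all 9 libraries and the union of exons. Ratios of same-numbered libraries added 0.5 CPM. Scripts were tested on simulated data. Deviations of same-numbered libraries from their group means correlated in every pair (0.157 to 0.447). Differently numbered libraries gave -0.354 to 0.123, and taking deviations from group means by itself lowers these values. Between numbers 1 and 2 they were 0.011 to 0.123, so mainly number 3 stood apart. The numbers, from the titles, were taken to pair the samples, though 1 and 2 were little separated. No 2 libraries agreed within sampling noise. Alternatives were other scalings, no filter, DESeq2 1.42.0, the block, 1 fit of all libraries and leaving out each library. Named genes were 3 core and 3 regulatory genes highest per length in input, the 4 highest and 4 lowest log2 fold changes against input, and copies with 10 counts or more in a library. Members and lists were chosen with earlier results of these data known. Sequences were not used here.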

Additional observations from a re-analysis of the deposited data

How the results depend on the processing

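Scaling by library totals moved most values. All calls then numbered 2313 against input and 1482 against the IgG control, 21 and 15 of them subunit genes. The median log2 fold change was -1.17 for the subunit genes (core -1.13, regulatory -1.18) against input and -0.99 (core -1.06, regulatory -0.95) against the IgG control, where all genes moved by -0.88 and -0.84. Prosalpha2 then turned to -0.47 and -0.59, Prosbeta7 to -0.77 and -0.77, Rpt3 to -0.68 against input, Rpt3R to -0.16 against the IgG control, and in the IgG control against input Prosbeta1 turned to -0.011 and the regulatory median moved to -0.19. With the replicate block, calls numbered 241 against input and 8 in the IgG control against input, and Rpt3R turned to -1.88 against input and -3.09 against the IgG control. With the 2-fold rule the block changed the call of no subunit gene. In the IgG control against input, calls numbered 1 without the filter, 1 in a fit of all 9 libraries and 33 with DESeq2, where Rpn11 turned to 0.0052 (0.0049 with DESeq2-type size factors in edgeR). Without ribosomal protein genes in the total, the shares were 0.295% for the core and 0.417% for the regulatory particle in Larp IP libraries, 0.386% and 0.531% in IgG control libraries, and 0.396% and 0.601% in input libraries.

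Leaving out each library in turn, calls ran from 126 to 358 against input, from 114 to 184 against the IgG control (the highest in both without Larp IP replicate 3) and from 0 to 1 in the IgG control against input, and 0 subunit genes were called in any of these fits. Log2 fold changes against input ran from -0.37 to 0.025 for Rpn11, -0.020 to 0.30 for Prosbeta7 and -6.28 to 1.75 for Rpt3R. Against the IgG control they ran from -0.016 to 0.47 for Prosalpha2, -0.42 to 0.015 for Prosbeta2, -0.065 to 0.27 for Prosbeta7, -0.35 to 0.053 for Rpn11, -0.23 to 0.18 for Rpt3 and -7.12 to 1.01 for Rpt3R. In the IgG control against input they ran from -0.15 to 0.050 for Prosalpha6, -0.14 to 0.075 for Rpn11, -0.26 to 0.0028 for Rpn5, -0.077 to 0.16 for Prosbeta1, -0.29 to 0.00040 for Rpt6 and -0.035 to 0.14 for Prosbeta7, and the regulatory median ran from -0.14 to -0.064. The median against input ran from -0.36 to -0.22 for the 31 genes, -0.36 to -0.08 for the core and -0.34 to -0.22 for the regulatory particle. Against the IgG control it ran from -0.23 to -0.04, -0.32 to -0.04 and -0.20 to -0.05 for the same lists, and in the IgG control against input from -0.14 to -0.02 for the 31 genes and -0.02 to 0.14 for the core. Counts of the copies and of Prosalpha1 were too low for a comparison at this depth. For all these changes the cause was not tested.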

Other observations

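Sem1 encodes a small lid subunit that the naming rule does not take, and it was looked at after its values were seen. It had 69.2, 88.6 and 167 normalised CPM in Larp IP libraries, 147, 183 and 139.8 in IgG control libraries and 92.7, 109.6 and 90.7 in input libraries. Every IgG control library was above every input library, as held for 5.41% of all genes tested. The log2 fold change in this comparison was 0.68 (SE 0.18, adjusted p = 0.649, edgeR), the highest of the 17 listed pathway genes. That is above the highest value of the 31 subunit genes in this comparison, 0.27 for Rpt3. Rad23, a shuttle that carries ubiquitin-tagged proteins to the proteasome, had 245, 210 and 331 normalised CPM in Larp IP libraries, 401, 294 and 418 in IgG control libraries and 339.6, 387 and 361 in input libraries, with log2 fold changes of -0.45 against input and -0.49 against the IgG control, the lowest of the 17 listed pathway genes against input (adjusted p = 0.304, edgeR). It was also named after its values were seen.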
